A study of Mus musculus with 46 samples.

Results

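Mouse embryonic fibroblasts (MEF) carrying an Oct4-GFP reporter (OG2) were reprogrammed with retroviral Oct4 (gene symbol Pou5f1) together with 1 of 2 forms of Nanog, and the RNA of both combinations at day 10 (D10) was compared. NanogWT+Oct4 delivered the native protein. NanogBiD+Oct4, named NanogN70 in the labels, delivered Nanog with the BRG1-interacting N-terminal stretch of SS18 fused to its own N-terminus. The comparison took 4 of the 46 samples of the series, namely the 2 replicates of each combination at D10, chosen by their labels alone. Both groups were in culture for the same time after infection and both were in serum-free N2B27 medium with LIF and the inhibitors CHIR99021 and PD0325901 (2iL) by then. Until the switch to 2iL the study's methods name another medium, iCD3. The vectors were pMXs retroviruses, whose viral promoter is active in fibroblasts and is known to be silenced in pluripotent cells. RNA came from whole cultures, so lower expression per cell and fewer cells of a type cannot be told apart. The labels do not say that the replicates were separate cultures, and p-values therefore measure only the spread between these libraries.

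Nanog and Oct4 are transcription factors of the early embryo that hold embryonic stem (ES) cells in the naive pluripotent state. SS18 is a subunit of the BAF complex, an ATP-driven remodeller that slides and evicts nucleosomes and whose motor is BRG1 (gene symbol Smarca4). During reprogramming, fibroblasts lose contractile and matrix genes, take on epithelial junctions in a mesenchymal-to-epithelial transition (MET), and then switch on the pluripotency genes. Uninfected MEF (2 libraries) and OG2 mouse ES cells (mES) kept in 2iL (1 library) in the same table served as reference points, without a test.

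Expression was given as FPKM, fragments scaled by gene length and library size, and was analysed as log2(FPKM + 1), a scale that understates the difference of low genes. Relative depth, expressed against the median of the 20 earlier libraries (D0 to D7), was 0.911 and 0.906 in the NanogBiD replicates and 1.85 and 3.09 in the NanogWT replicates. Depth and combination cannot be told apart at D10, and low genes are measured more finely with NanogWT. Same-group replicates correlated across genes at r = 0.981 with NanogBiD and 0.985 with NanogWT. The fibroblast identity of the starting cells was still visible, since the summed level of 8 fibroblast markers was 574 and 459 FPKM with NanogBiD and 3438 and 3350 FPKM with NanogWT, against 6613 and 5613 FPKM in MEF and 4.61 FPKM in mES.

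The introduced factors were examined first. Nanog RNA was at 200 and 128 FPKM with NanogBiD and at 387 and 331 FPKM with NanogWT. It was lower with the fusion by a log2 difference of -1.15 (SE 0.20; limma, adjusted p = 8.6e-05), but without NanogBiD replicate 2 the difference was -0.84 and fell short of the 2-fold limit. Pou5f1 was at 667 and 434 FPKM with NanogBiD and at 3644 and 2763 FPKM with NanogWT, a difference of -2.56 (SE 0.36, adjusted p = 6.49e-06). The mES library had 365 FPKM of Nanog and 877 FPKM of Pou5f1. FPKM of a gene does not separate vector from endogenous transcripts, so these levels hold both. Ss18, of which the fusion carries a part, was at 51.9 and 45.7 FPKM with NanogBiD and at 28.9 and 29.6 FPKM with NanogWT. Its difference of 0.72 (SE 0.17, adjusted p = 0.00125) was under the 2-fold limit although the groups did not overlap.

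The question of the comparison was how the transcriptome of cells given the fusion differs from that of cells given native Nanog at the same day. In one limma model over all time-course groups, 4676 of 16842 genes (27.8%) differed by at least 2-fold at an adjusted p under 0.05, which is the rule for a call throughout. Of these, 2597 (15.4%) were higher with NanogBiD and 2079 (12.3%) were lower. The median difference over all genes tested was 0.10. The groups did not overlap in 80.3% of all genes tested, so absence of overlap alone separates little here.

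**Figure D1:**
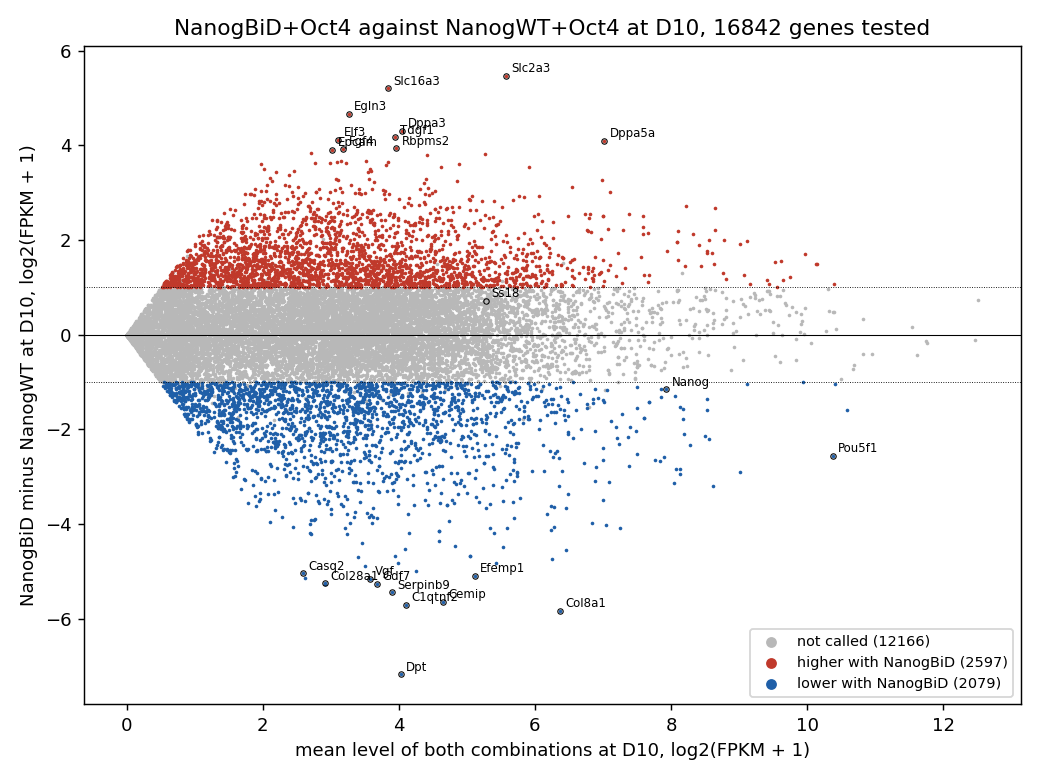
Each point is 1 of the 16842 genes tested at D10, with the mean log2(FPKM + 1) of both combinations on the x axis and the NanogBiD minus NanogWT difference on the y axis (2 replicates each); red points were called higher with NanogBiD (2597), blue points lower (2079) and grey points were not called. The largest difference upward is Slc2a3 at 5.47 and the largest downward is Dpt at -7.18.

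The 10 largest differences toward NanogBiD included 4 pluripotency effectors and were led by a glucose transporter. Slc2a3 (chromosome 6, 122727809 to 122802363, mm10), the high-affinity glucose transporter GLUT3, was at 414 and 221 FPKM with NanogBiD and at 4.28 and 7.86 FPKM with NanogWT, a difference of 5.47 (SE 0.29, adjusted p = 2.51e-11). In MEF it was at 1.79 and 2.42 FPKM and in mES at 1071 FPKM. Slc16a3 (chromosome 11, 120948484 to 120959000), which exports lactate, was at 99.2 and 72.3 FPKM against 0.96 and 1.73 FPKM (5.21, SE 0.52). Both NanogWT libraries lay below the 8.17 and 25.3 FPKM of the MEF libraries, so Slc16a3 stood above the fibroblast level with one combination and below it with the other. Egln3, a prolyl hydroxylase that acts on the hypoxia-inducible factors, was at 61.0 and 35.5 FPKM against 0.75 and 1.00 FPKM (4.67, SE 0.38).

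Pluripotency genes followed. Dppa3, a maternal factor that guards DNA methylation in the early embryo and is also called Stella, was at 88.3 and 56.4 FPKM against 1.79 and 3.70 FPKM (4.30, SE 0.49), above the 22.9 FPKM of mES. Tdgf1, a co-receptor of Nodal, was at 70.9 and 53.6 FPKM against 1.41 and 4.01 FPKM (4.17, SE 0.34), well under the 408 FPKM of mES. Dppa5a, an RNA-binding protein of pluripotent cells, was at 706 and 361 FPKM against 20.0 and 40.7 FPKM (4.10, SE 0.41). Fgf4, the ligand that drives ERK signalling in ES cells, was at 47.0 and 22.7 FPKM against 0.73 and 1.85 FPKM (3.93, SE 0.30). All 4 genes were listed at 0 in both MEF libraries, and all 4 had NanogBiD replicate 1 above replicate 2 and NanogWT replicate 2 above replicate 1.

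The remaining members of the 10 largest differences were Elf3, Rbpms2 and Epcam. Elf3, an ETS factor of epithelia, was at 48.4 and 23.7 FPKM against 0.80 and 1.23 FPKM (4.13, SE 0.30). Rbpms2, an RNA-binding protein, was at 81.7 and 38.8 FPKM against 1.64 and 4.28 FPKM (3.94, SE 0.33), with MEF between them at 8.55 and 13.6 FPKM. Epcam, an epithelial adhesion molecule, was at 41.9 and 20.2 FPKM against 0.60 and 1.52 FPKM (3.91, SE 0.34), and the mES library had 40.1 FPKM. Adjusted p of these 10 genes lay between 2.51e-11 and 5.12e-07.

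At the other end stood mainly secreted and matrix proteins. Dpt (chromosome 1, 164796663 to 164824274), which encodes the matrix protein dermatopontin, was at 0.25 and 0.46 FPKM with NanogBiD and at 215 and 174 FPKM with NanogWT, a difference of -7.18 (SE 0.26, adjusted p = 2.24e-13). MEF held only 2.57 and 0.39 FPKM of it. Col8a1, a collagen chain, was at 9.28 and 10.5 FPKM against 643 and 596 FPKM (-5.83, SE 0.18). Cemip, which takes part in hyaluronan breakdown, was at 2.43 and 2.63 FPKM against 180 and 171 FPKM (-5.64, SE 0.29), with 6.07 and 5.50 FPKM in MEF. The NanogWT mean was above the MEF mean for all 3 genes and the NanogBiD mean was below it.

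The rest of the 10 most negative differences were also above MEF with NanogWT, and Gdf7 and Vgf were so with NanogBiD too, in the mean. C1qtnf2, a secreted C1q-family protein, was at 1.72 and 1.01 FPKM against 144 and 102 FPKM (-5.71, SE 0.43). Serpinb9, a granzyme inhibitor, was at 1.07 and 1.44 FPKM against 108 and 87.1 FPKM (-5.44, SE 0.28). Gdf7, a ligand of the BMP family, was listed at 0 in both MEF libraries, was at 2.08 and 0.24 FPKM with NanogBiD and reached 83.6 and 65.3 FPKM with NanogWT (-5.26, SE 0.38). Col28a1, another collagen chain, was at 0.27 and 0.16 FPKM against 52.8 and 38.8 FPKM (-5.25, SE 0.16). Vgf, a secreted neuropeptide precursor, was at 0.96 and 1.02 FPKM against 77.0 and 63.5 FPKM (-5.15, SE 0.28). Efemp1, an extracellular fibulin, was at 5.45 and 4.40 FPKM against 221 and 183 FPKM (-5.10, SE 0.23). Casq2, a calcium-binding protein of the sarcoplasmic reticulum, was at 0.053 and 0.026 FPKM against 38.9 and 28.3 FPKM (-5.04, SE 0.19). For each of these 10 genes the lower NanogWT library was above both MEF libraries.

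**Figure D2:**
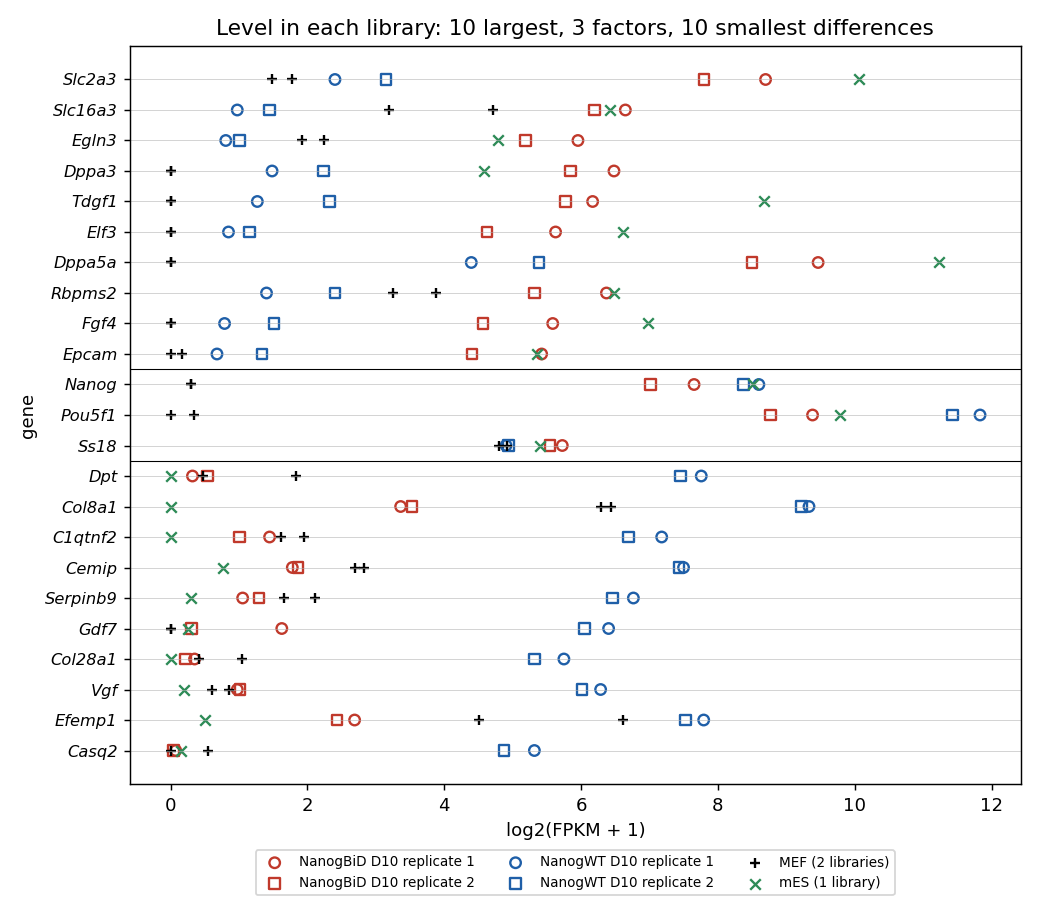
The x axis is log2(FPKM + 1) and each row is a gene: the 10 largest differences, the factors Nanog, Pou5f1 and Ss18, and the 10 most negative differences; open red symbols are the NanogBiD D10 replicates, open blue symbols the NanogWT D10 replicates, black crosses the 2 MEF libraries and green crosses the mES library. Red and blue do not overlap in any row, and in the bottom 10 rows the blue symbols lie to the right of MEF.

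The upstream sequences of the most different genes were inspected for the octamer ATGCAAAT, the element that Oct4 reads, and for the AP-1 element TGANTCA, on both strands and with overlapping matches counted, in the 250 bases before the RefSeq start (GRCm38.p6, the mm10 assembly). The octamer occurred in 2 of 7 genes with an entry among the 10 largest differences, Egln3 and Elf3, and in none of 9 among the 10 most negative, where AP-1 occurred in 1. Among the naive pluripotency factors described below, 2 of 14 genes with an entry held it, Zfp296 and Zfp42, of which Zfp42 is shown, chosen after its values were seen. Dpt, the most negative gene, is shown for contrast and held neither element. Capitals mark the octamer, or its reverse complement ATTTGCAT in Zfp42. Each sequence is written along the gene's own strand.
Egln3 (chr12:54203875-54204124, minus strand): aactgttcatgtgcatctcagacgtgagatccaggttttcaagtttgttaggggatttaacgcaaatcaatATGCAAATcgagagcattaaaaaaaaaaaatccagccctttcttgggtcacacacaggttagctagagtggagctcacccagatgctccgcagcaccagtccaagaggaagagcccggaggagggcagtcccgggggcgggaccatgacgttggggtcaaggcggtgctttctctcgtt
Elf3 (chr1:135258473-135258722, minus strand): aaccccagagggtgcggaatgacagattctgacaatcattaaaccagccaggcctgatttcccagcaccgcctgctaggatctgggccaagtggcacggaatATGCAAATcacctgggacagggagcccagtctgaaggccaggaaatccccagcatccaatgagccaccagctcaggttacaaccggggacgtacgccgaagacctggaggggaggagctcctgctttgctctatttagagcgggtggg
Zfp42 (chr8:43307010-43307259, minus strand): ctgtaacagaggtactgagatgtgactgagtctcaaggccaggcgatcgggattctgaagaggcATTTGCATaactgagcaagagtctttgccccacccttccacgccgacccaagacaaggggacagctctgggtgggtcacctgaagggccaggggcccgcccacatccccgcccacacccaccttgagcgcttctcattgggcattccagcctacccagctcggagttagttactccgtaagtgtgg
Dpt (chr1:164796413-164796662, plus strand): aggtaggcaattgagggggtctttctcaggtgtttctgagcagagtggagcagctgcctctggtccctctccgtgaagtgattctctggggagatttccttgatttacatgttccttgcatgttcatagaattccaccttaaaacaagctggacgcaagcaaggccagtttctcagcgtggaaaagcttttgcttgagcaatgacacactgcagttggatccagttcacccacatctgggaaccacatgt
The octamer begins 179 bases before the start in Egln3, 148 bases before it in Elf3 and 186 bases before it in Zfp42. Counted by gene, as in the sets above, 207 of 11953 tested genes with an entry held the octamer. A gene can have more than 1 promoter window. Over all promoter windows of genes tested, 1.41% held the octamer, against 1.71% of those of genes called higher and 1.61% of those of genes called lower. For the AP-1 element the shares were 4.64%, 4.20% and 6.49%. A match of letters is a description and says nothing of binding in these cells.

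The naive pluripotency transcription factors were nearly all higher with NanogBiD. Of 19 tested, 17 were called higher and none lower, with a median difference of 2.79 against 0.10 over all genes tested. Klf2, an effector of ERK inhibition, was at 134 and 70.6 FPKM against 4.98 and 9.80 FPKM (3.61, SE 0.42). Sox2, the partner of Oct4 on composite DNA sites, was at 200 and 177 FPKM against 7.91 and 28.3 FPKM (3.55, SE 0.45). Sall4, a zinc finger factor needed in the early embryo, was at 44.4 and 31.5 FPKM against 1.36 and 4.13 FPKM (3.47, SE 0.31). Esrrb, an orphan nuclear receptor of the naive network, was at 44.6 and 29.7 FPKM against 1.59 and 3.60 FPKM (3.44, SE 0.28). Zfp42, the ES cell marker Rex1, was at 30.2 and 19.3 FPKM against 1.29 and 2.77 FPKM (3.10, SE 0.29).

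The exceptions were both Kruppel-like factors. Klf4 was at 15.9 and 13.7 FPKM with NanogBiD and at 11.4 and 13.2 FPKM with NanogWT (0.24, SE 0.35, adjusted p = 0.591), near the MEF mean of 14.5 FPKM and far from the 165 FPKM of mES. Klf5 was at 29.3 and 20.4 FPKM against 14.5 and 12.4 FPKM (0.82, SE 0.27), which did not reach 2-fold. In the median member the NanogBiD level was 36.4% of the mES level and the NanogWT level 4.51%. NanogBiD replicate 1 was above replicate 2 in 17 of the 19 factors, and NanogWT replicate 2 was above replicate 1 in 17.

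Effectors of pluripotency behaved alike, with 20 of 21 tested called higher, none lower, and a median difference of 2.96. Besides the genes above they included Lefty2, an antagonist of Nodal (45.3 and 31.9 FPKM against 1.74 and 3.37 FPKM), Lin28a, which blocks let-7 maturation (24.2 and 24.9 FPKM against 0.73 and 3.07 FPKM), and Pecam1, a surface protein of naive cells (12.1 and 5.95 FPKM against 0.25 and 0.20 FPKM). The member not called was Alpl, alkaline phosphatase, at 79.2 and 42.4 FPKM against 61.5 and 47.0 FPKM. Median levels were 27.7% of mES with NanogBiD and 3.12% with NanogWT. Some members, such as Pecam1, Dppa4 (0.37 and 0.34 FPKM) and Tcl1 (0.041 and 0.61 FPKM), were under 1 FPKM in both NanogWT libraries. Prdm14 among the naive factors was so too (0.077 and 0.26 FPKM). Such members can pass the filter on low values through NanogBiD libraries, and their direction is then no independent result.

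Genes of formative and primed pluripotency, the states that follow the naive state, were divided. Of 15 tested, 8 were called higher and 1 lower, with a median of 1.06. Sox3 was at 33.8 and 37.3 FPKM against 1.32 and 8.24 FPKM (2.98, SE 0.51) and Dnmt3b, a de novo DNA methyltransferase, at 16.2 and 10.3 FPKM against 0.76 and 1.77 FPKM (2.66, SE 0.24). Pou3f1, a POU factor also called Oct6, went the other way with 4.79 and 5.96 FPKM against 43.0 and 35.7 FPKM (-2.66, SE 0.43), and was listed at 0 in MEF. Otx2 (1.55 and 0.49 FPKM against 0 and 0.0078 FPKM) and T (0.52 and 1.01 FPKM against 0.0089 and 0.15 FPKM) were low throughout and not called. Fgf5 did not pass the filter on low values.

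**Figure D3:**
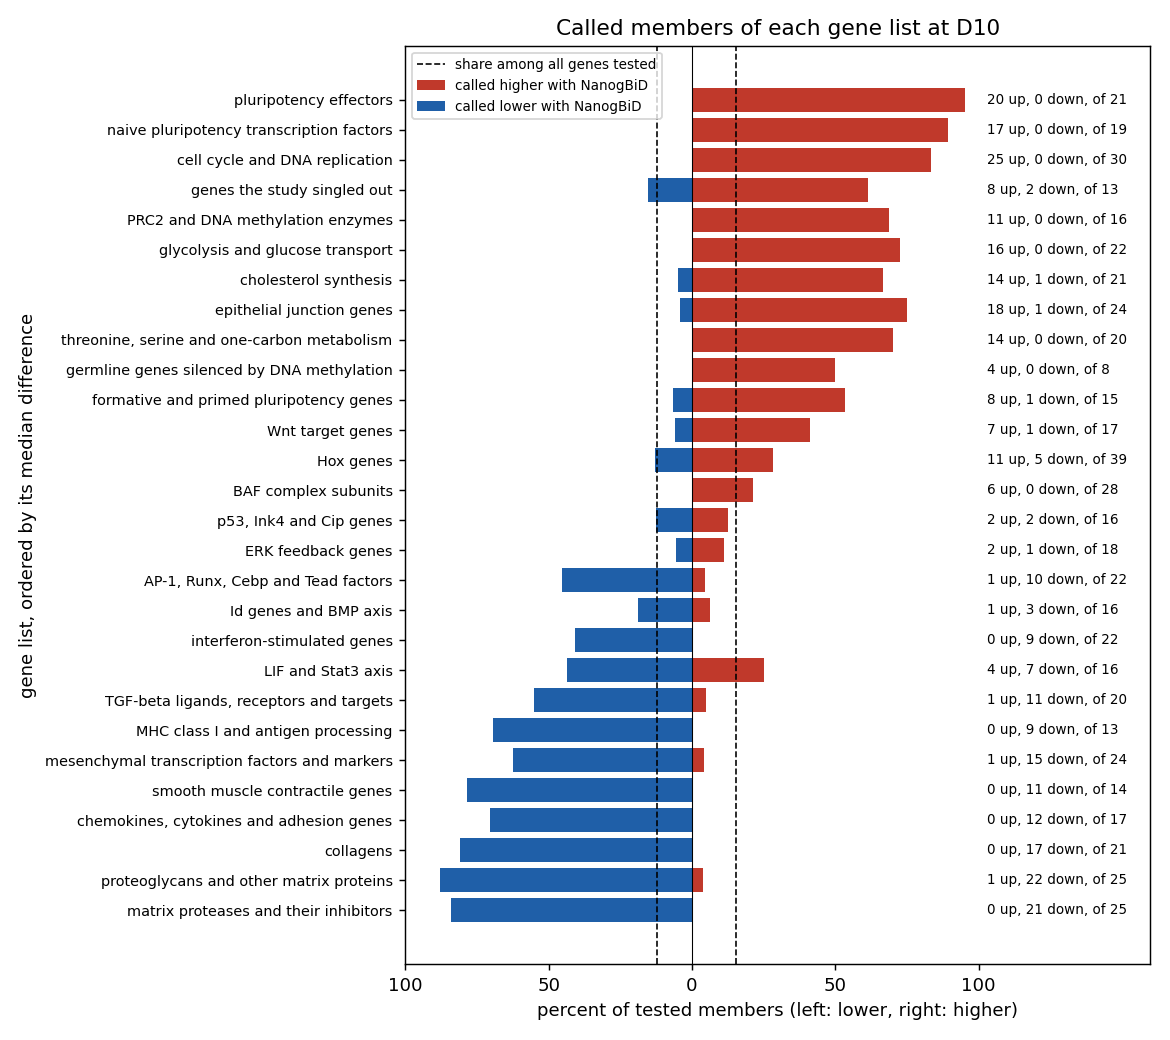
Bars give the percent of tested members of each of 28 gene lists that were called higher (red, to the right) or lower (blue, to the left) with NanogBiD at D10, and dashed lines mark the shares among all genes tested, 15.4% higher and 12.3% lower. Pluripotency, cell cycle, glycolysis and epithelial lists lie far to the right, and matrix, chemokine and contractile lists far to the left.

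Epithelial genes were mostly higher with NanogBiD and mesenchymal genes mostly lower. Of 24 epithelial junction genes tested, 18 were called higher and 1 lower, with a median of 1.55. Cdh1, the E-cadherin of adherens junctions, was at 38.7 and 20.7 FPKM against 0.86 and 1.90 FPKM (3.66, SE 0.31). Cldn4, a tight junction claudin, was at 49.9 and 18.0 FPKM against 1.36 and 1.65 FPKM (3.63, SE 0.47). Krt8, a simple epithelial keratin, was at 41.6 and 15.2 FPKM against 0.91 and 1.4 FPKM (3.62, SE 0.43), and its partner Krt18, counted here and among the formative genes, at 37.6 and 15.1 FPKM against 1.24 and 1.90 FPKM (3.29, SE 0.50). Patj, a scaffold of the tight junction, was the member called lower, with 2.92 and 2.70 FPKM against 17.2 and 14.0 FPKM. NanogBiD replicate 1 exceeded replicate 2 in 23 of the 24 genes.

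Among 24 mesenchymal factors and markers, 15 were called lower with NanogBiD and 1 higher (Meox1, at 1.25 and 1.78 FPKM and listed at 0 with NanogWT), with a median of -1.76. Thy1, a fibroblast surface protein, was at 12.0 and 9.25 FPKM against 233 and 162 FPKM (-4.08, SE 0.32). Twist1, a basic helix-loop-helix factor of mesenchyme, was at 10.9 and 8.85 FPKM against 161 and 115 FPKM (-3.66, SE 0.31), and the MEF mean of 56.0 FPKM lay between them. Nt5e, the ecto-nucleotidase CD73, was at 4.25 and 4.35 FPKM against 75.9 and 53.3 FPKM (-3.61, SE 0.25), and Ddr2, a collagen receptor, at 6.72 and 6.17 FPKM against 97.5 and 81.9 FPKM (-3.60, SE 0.28). The Zeb and Snail factors were not uniformly different. Snai2 was called lower (3.45 and 2.45 FPKM against 17.3 and 14.8 FPKM), whereas Snai1 (5.74 and 6.39 FPKM against 9.14 and 8.95 FPKM), Zeb2 (7.54 and 12.1 FPKM against 12.1 and 13.9 FPKM) and Zeb1 (13.0 and 14.7 FPKM against 12.8 and 13.1 FPKM) were not called.

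Matrix genes formed the most one-sided groups among those lower with the fusion. Of 21 collagen chains, 17 were called lower and none higher (median -2.23). Of 25 proteoglycans and other matrix proteins, 22 were called lower and 1 higher (median -2.44). Of 25 matrix proteases and their inhibitors, 21 were called lower and none higher (median -2.59). Col5a2 was at 23.1 and 18.9 FPKM against 293 and 251 FPKM (-3.64, SE 0.14), Fbln5, which assembles elastic fibres, at 2.91 and 2.19 FPKM against 79.1 and 81.7 FPKM (-4.52, SE 0.18), and Ogn, a small leucine-rich proteoglycan, at 5.31 and 4.77 FPKM against 123 and 141 FPKM (-4.46, SE 0.43). The proteases Adamts5 (2.21 and 1.88 FPKM against 84.7 and 68.9 FPKM; -4.67, SE 0.25) and Adamts1 (8.57 and 8.76 FPKM against 241 and 195 FPKM; -4.49, SE 0.21) had the largest differences among the enzymes that cut the matrix.

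Not all matrix genes shared the direction. Fbln1 was higher with NanogBiD, at 15.4 and 18.7 FPKM against 4.56 and 5.23 FPKM, and Col18a1 stood at 34.9 and 30.7 FPKM against 17.1 and 15 FPKM without a call. Relative to MEF, the median collagen was at 7.96% with NanogBiD and 44.9% with NanogWT, while the median protease or inhibitor was at 14.4% and 94.3%. With NanogWT, protease RNA was thus near the fibroblast level in the median and collagen RNA was under it.

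Contractile genes were low in both combinations compared with MEF, and lower with the fusion. Of 14 smooth muscle genes, 11 were called lower and none higher (median -1.86). Acta2, smooth muscle actin, was at 8.06 and 5.33 FPKM against 56.4 and 54.0 FPKM (-2.89, SE 0.32), and MEF held 770 and 1153 FPKM. Tagln was at 10.8 and 7.81 FPKM against 101 and 83.8 FPKM (-3.19, SE 0.40), and Myl9, a myosin light chain, at 6.47 and 5.11 FPKM against 109 and 97.4 FPKM (-3.94, SE 0.42). The median member stood at 2.77% of MEF with NanogBiD and at 23.6% with NanogWT.

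TGF-beta signalling opposes the MET and maintains matrix genes. Of 20 ligands, receptors and targets, 11 were called lower and 1 higher with NanogBiD (median -1.08). The receptor Tgfbr2 was at 9.98 and 9.43 FPKM against 115 and 113 FPKM (-3.42, SE 0.17) and the co-receptor Tgfbr3 at 2.95 and 3.01 FPKM against 34.6 and 32.6 FPKM (-3.12, SE 0.18). All 3 ligands were called lower, with Tgfb2 the largest in size (3.61 and 4.56 FPKM against 24.4 and 24.6 FPKM). The intracellular Smad2 (11.3 and 11.9 FPKM against 7.10 and 7.17 FPKM), Smad3 (23.1 and 30.8 FPKM against 25.6 and 25.5 FPKM) and Smad4 (26.9 and 31.8 FPKM against 17.6 and 19.7 FPKM) were not called, nor was the type I receptor Tgfbr1.

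Transcription factors that keep fibroblast enhancers open were partly lower. In the list of AP-1, Runx, Cebp and Tead factors, 10 of 22 were called lower and 1 higher (median -0.41). Fosl2 was at 6.35 and 4.89 FPKM against 51.0 and 50.4 FPKM (-2.97, SE 0.19), Cebpd at 5.66 and 3.72 FPKM against 42.9 and 40.1 FPKM (-2.92, SE 0.37), Junb at 11.6 and 10.0 FPKM against 60.6 and 50.4 FPKM (-2.25, SE 0.60) and Runx1 at 1.09 and 0.99 FPKM against 8.21 and 8.26 FPKM (-2.18, SE 0.18). Jund, at 103 and 101 FPKM against 89.8 and 103 FPKM, was not called and its groups met. Tead2 was higher with NanogBiD (98.3 and 98.3 FPKM against 41.4 and 49.5 FPKM).

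Subunits of BAF, the complex that the fusion is built to contact, differed little. Of 28 tested, 6 were called higher and none lower, near the background of 15.4% for calls in this direction, and the median was 0.56. Smarcd1, which encodes BAF60A, was at 56.7 and 68.2 FPKM against 12.9 and 21.2 FPKM (1.84, SE 0.23), Bcl7a at 17.0 and 26.8 FPKM against 4.45 and 8.64 FPKM (1.62, SE 0.27) and Actl6a, the BAF53A of dividing progenitors, at 49.7 and 46.6 FPKM against 13.4 and 17.6 FPKM (1.59, SE 0.21). Smarcc1, the BAF155 of ES cells, was at 59.0 and 67.8 FPKM against 24.7 and 32.4 FPKM (1.13, SE 0.15), and without NanogWT replicate 1 its difference of 0.94 fell short of 2-fold. The motor Smarca4 was at 51.4 and 59.8 FPKM against 27.6 and 34.7 FPKM (0.82) and its paralog Smarca2 at 5.06 and 3.79 FPKM against 9.76 and 8.02 FPKM (-0.87), neither of them called.

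Chromatin writers of the polycomb repressive complex 2 (PRC2) and of DNA methylation differed more. Of 16, 11 were called higher and none lower (median 1.99). Ezh2, the PRC2 methyltransferase, was at 45.7 and 46.7 FPKM against 5.50 and 11.9 FPKM (2.37, SE 0.21), Epop, a PRC2 partner in ES cells, at 55.5 and 53.7 FPKM against 5.00 and 12.1 FPKM (2.65, SE 0.39), and Uhrf1, which guides maintenance methylation, at 92.1 and 83.4 FPKM against 9.13 and 22.2 FPKM (2.53, SE 0.27). Dnmt3a, Tet3 and Ezh1 were not called, with differences of -0.24, -0.12 and 0.29. Germline genes silenced by DNA methylation in somatic cells were mostly too low to test. Of 18, 8 passed the filter and 4 were called higher, against 15.4% of all genes tested. Among them were Tex19.1 (8.29 and 4.71 FPKM against 0.12 and 0.65 FPKM) and Dazl (2.16 and 2.25 FPKM against 0.029 and 0.14 FPKM). Such low genes pass the filter only through libraries where they are expressed, as these did with NanogBiD. The direction of these calls is therefore no independent result. Another called member, Rpl10l, is a retrocopy that can share reads with its parent gene, and its level is uncertain.

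Proliferation genes were higher with NanogBiD as a group. Of 30 cell cycle and DNA replication genes, 25 were called higher and none lower (median 2.26). Bub1, a spindle checkpoint kinase, was at 29.0 and 26.1 FPKM against 1.84 and 3.54 FPKM (2.99, SE 0.25), Top2a at 131 and 134 FPKM against 11.7 and 25.8 FPKM (2.86, SE 0.26), Ccnb1, cyclin B1, at 113 and 102 FPKM against 9.48 and 21.4 FPKM (2.82, SE 0.29) and Cdt1, a replication licensing factor, at 57.8 and 47.7 FPKM against 5.24 and 9.03 FPKM (2.76, SE 0.25). The 3 D-type cyclins were not called, with Ccnd1 at 59.8 and 88.2 FPKM against 70.9 and 86.7 FPKM. The median member was at 285% of MEF with NanogBiD and at 67.2% with NanogWT, so the native combination stood below fibroblasts. NanogWT replicate 2 was above replicate 1 in 29 of the 30 genes.

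Of 16 p53, Ink4 and Cip genes, 2 were called in each direction, near the shares of 15.4% higher and 12.3% lower among all genes tested. Cdkn2b, the inhibitor p15, was lower with NanogBiD (5.37 and 5.49 FPKM against 36.3 and 44.4 FPKM; -2.68, SE 0.27), as was Cdkn1a, the inhibitor p21 (123 and 121 FPKM against 266 and 264 FPKM; -1.11, SE 0.14). Trp53 itself was higher (106 and 80.0 FPKM against 31.9 and 38.9 FPKM; 1.37, SE 0.22), as was Pmaip1 (28.7 and 17.5 FPKM against 7.00 and 6.56 FPKM; 1.59, SE 0.24). Cdkn2a, which encodes p16 and ARF and is a barrier to reprogramming, was at 40.0 and 35.5 FPKM against 70.1 and 68.0 FPKM (-0.86) and was not called.

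Central metabolism differed along with these genes. Naive and primed pluripotent cells run a high rate of glycolysis, and mouse ES cells depend on threonine breakdown for one-carbon units. Of 22 genes of glycolysis and glucose transport, 16 were called higher and none lower (median 1.93). Slc2a1, the transporter GLUT1, was at 399 and 373 FPKM against 29.7 and 51.0 FPKM (3.28, SE 0.20), Pgk1 at 839 and 688 FPKM against 107 and 122 FPKM (2.72, SE 0.20) and Eno1, enolase, at 1106 and 925 FPKM against 132 and 186 FPKM (2.69, SE 0.17). The median member stood at 104% of mES with NanogBiD and 25.2% with NanogWT. Of 20 genes of threonine, serine and one-carbon metabolism, 14 were called higher and none lower (median 1.55), with Tdh, threonine dehydrogenase, first in size (96.0 and 64.4 FPKM against 3.56 and 9.22 FPKM; 3.54, SE 0.46), then Amt of the glycine cleavage system (38.9 and 23.4 FPKM against 2.28 and 3.67 FPKM; 2.99, SE 0.30). Phgdh, the entry enzyme of serine synthesis, was at 83.1 and 92.8 FPKM against 64.8 and 72.3 FPKM and was not called.

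The cholesterol synthesis pathway also separated the combinations, with 14 of 21 called higher and 1 lower (median 1.60). Hmgcs1 was at 216 and 248 FPKM against 40.6 and 58.6 FPKM (2.22, SE 0.16), Idi1 at 96.4 and 120 FPKM against 20.7 and 30.7 FPKM (2.05, SE 0.19) and Insig1, a sterol sensor, at 63.3 and 62.4 FPKM against 13.3 and 18.5 FPKM (1.94, SE 0.19). This list had the opposite median at D7 (-0.62), and 17 of its 21 members were called as rising in the test of the change of the difference from D7 to D10, against 6.72% of all genes tested. Median levels at D10 were 116% of MEF with NanogBiD and 44.8% with NanogWT.

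Immune and inflammatory genes were lower with the fusion. Of 17 chemokines, cytokines and adhesion genes, 12 were called lower and none higher (median -1.98), with Ccl7 at 1.26 and 1.10 FPKM against 47.3 and 33.0 FPKM (-4.22, SE 0.34) and Ccl2 at 1.34 and 1.51 FPKM against 41.8 and 33.6 FPKM (-3.99, SE 0.40). Of 13 genes of MHC class I and antigen processing, 9 were called lower and none higher (median -1.46). B2m, the invariant chain of MHC class I, was at 130 and 128 FPKM with NanogBiD, at 1284 and 1100 FPKM with NanogWT and at 206 and 150 FPKM in MEF (-3.19, SE 0.20). H2-D1 was at 37.0 and 29.6 FPKM against 202 and 170 FPKM (-2.45, SE 0.21), although reads of class I heavy chain genes can be shared among near-identical copies. Of 22 interferon-stimulated genes, 9 were called lower and none higher (median -0.81). That count was 4 without NanogBiD replicate 2 and 4 without NanogWT replicate 1, and Isg15 (3.48 and 2.06 FPKM against 20.3 and 10.2 FPKM) and Bst2 (100 and 58.7 FPKM against 245 and 164 FPKM) lost their calls in both cases, with adjusted p of 0.102 and 0.142 for Isg15 and of 0.258 and 0.229 for Bst2. The test of Bst2, NanogBiD against NanogWT at D10, also missed the threshold without NanogWT replicate 2 (limma, adjusted p = 0.0583).

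The 2iL medium acts through ERK inhibition, Wnt activation and LIF. Among 18 ERK feedback genes, the readout of PD0325901, 2 were called higher and 1 lower (median -0.16). These counts are no larger than the shares of 15.4% higher and 12.3% lower among all genes tested. Dusp4 was at 24.3 and 33.2 FPKM against 7.53 and 12.2 FPKM and Myc at 2.67 and 2.91 FPKM against 9.44 and 10.7 FPKM. Among 17 Wnt targets, which CHIR99021 raises, 7 were called higher and 1 lower (median 0.70), to be set against the same shares. Tcf7 was at 16.8 and 15.5 FPKM against 1.57 and 4.36 FPKM and Apcdd1 at 31.4 and 28.8 FPKM against 225 and 229 FPKM. Axin2, the common feedback target, was at 13.0 and 24.6 FPKM against 19.2 and 24.5 FPKM and was not called. Among 16 genes of the LIF and Stat3 axis, 4 were called higher and 7 lower (median -0.97), against 15.4% and 12.3% of all genes tested. The receptor chains Lifr (6.51 and 7.92 FPKM against 16.2 and 18.1 FPKM), Il6st (32.2 and 31.2 FPKM against 106 and 108 FPKM) and Osmr (3.47 and 5.82 FPKM against 27.3 and 26.4 FPKM) were lower. The targets were divided. Pim1 (42.7 and 34.1 FPKM against 3.36 and 4.09 FPKM), Gbx2 (19.4 and 41.9 FPKM against 0.60 and 6.76 FPKM) and Tfcp2l1 (31.2 and 27.3 FPKM against 11.5 and 14.0 FPKM) were higher. Socs3 was lower (21.1 and 37.1 FPKM against 68.7 and 70.5 FPKM), as was Junb (11.6 and 10.0 FPKM against 60.6 and 50.4 FPKM). Klf4 and Stat3 itself were not called, with differences of 0.24 and -0.99.

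In the BMP axis, 3 of 16 genes were called lower and 1 higher, against 12.3% and 15.4% of all genes tested. As a list it thus stood near the background. Grem1, a secreted BMP antagonist, was at 2.43 and 2.36 FPKM against 115 and 98.8 FPKM (-4.99, SE 0.38) and Bmp4 at 4.95 and 3.08 FPKM against 19.0 and 13.9 FPKM (-1.81, SE 0.26). Smad1 (14.9 and 18.0 FPKM against 36.3 and 36.7 FPKM; -1.10, SE 0.18) lost its call without NanogBiD replicate 1, where the difference was -0.98. Id4 was higher (18.7 and 24.1 FPKM against 4.06 and 6.05 FPKM), while Id3, at 100 and 112 FPKM against 104 and 105 FPKM, was not called.

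Hox genes record body position. Of 39 tested, 11 were called higher and 5 lower (median 0.68), against 15.4% and 12.3% of all genes tested. The members called higher came from paralog groups 1 to 9, whereas those called lower (Hoxa10, Hoxa11, Hoxc11, Hoxd10 and Hoxd13) came from groups 10 to 13. Hoxb9 was at 52.5 and 112 FPKM against 4.69 and 19.2 FPKM (2.86, SE 0.47) and Hoxb1, listed at 0 in MEF and mES, at 4.83 and 9.96 FPKM against 0.076 and 0.95 FPKM (2.46, SE 0.24). Hoxd13 was at 1.63 and 0.41 FPKM against 7.24 and 2.87 FPKM. Replicates were spread widely, with NanogBiD replicate 2 above replicate 1 in 28 of the 39 genes. The counts were 20 higher and 6 lower without NanogBiD replicate 1, 6 and 4 without NanogBiD replicate 2, 8 and 0 without NanogWT replicate 1, and 17 and 7 without NanogWT replicate 2.

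Of the genes the study itself singled out in its text, 13 of 15 passed the filter, with 8 called higher and 2 lower (median 2.05). This list was chosen on these samples and is no independent evidence of direction. The members lower with NanogBiD were Dab2, an endocytic adaptor (2.23 and 2.56 FPKM against 18.0 and 14.3 FPKM), and Thbd, thrombomodulin (1.87 and 1.69 FPKM against 31.9 and 41.4 FPKM; -3.75, SE 0.21). Foxb1 (3.70 and 5.22 FPKM against 0.11 and 0.54 FPKM) and Olig3 (11.5 and 16.9 FPKM against 0.69 and 3.72 FPKM), both neural patterning factors, were higher. The hairpin entry of Mir302a was at 1.95 and 0.98 FPKM and was listed at 0 with NanogWT, Mir367 was at 1.80 and 0.90 FPKM against 0.89 and 0 FPKM, and Mir302b was listed at 0 in all 4 libraries. These are short hairpin entries in an mRNA library, so they do not measure mature miRNAs, and the Mir302a call was lost without NanogBiD replicate 1.

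Markers of other cell types were compared as summed levels. The 8 ES cell markers summed to 1339 and 809 FPKM with NanogBiD and to 422 and 417 FPKM with NanogWT. Nanog, which the vectors supply, made up 387 and 331 FPKM of the NanogWT sums and 200 and 128 FPKM of the NanogBiD sums. The NanogWT sums are thus mostly Nanog and do not give the level of the other markers. Of the 8 ES cell markers, 7 were called higher, and Nanog was lower. The 8 neural markers summed to 327 and 489 FPKM with NanogBiD, to 61.4 and 114 FPKM with NanogWT, to 34.7 and 50.4 FPKM in MEF and to 81.8 FPKM in mES. Of the 8, 7 were called higher and none lower, with a median of 2.10. Tubb3, neuronal beta-tubulin, was at 191 and 308 FPKM against 26.2 and 62.5 FPKM, and Dcx, doublecortin of young neurons, at 11.9 and 23.8 FPKM against 2.21 and 4.46 FPKM. In all 8, NanogBiD replicate 2 was above replicate 1, the opposite of 17 of 19 naive pluripotency factors in the same libraries. What part neural cells had in any other difference was not tested.

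Markers of other lineages had low sums, or sums that rested mainly on a single gene. Macrophage markers summed to 7.97 and 4.21 FPKM with NanogBiD and to 44.2 and 11.7 FPKM with NanogWT, where Lyz2 (31.2 and 8.25 FPKM) was the member called lower with NanogBiD and Ptprc stayed at or under 0.12 FPKM. No macrophage marker was called without NanogWT replicate 1. Trophoblast markers summed to 36.0 and 20.8 FPKM against 4.02 and 5.84 FPKM, nearly all of it Tfap2c (27.7 and 18.1 FPKM against 0.45 and 1.45 FPKM), a factor that naive ES cells also express, at 20.9 FPKM in the mES library. Skeletal muscle markers summed to 64.2 and 35.7 FPKM against 1.97 and 4.89 FPKM, nearly all of it Mylpf, which was at 75.5 FPKM in mES, while Myf5 was at 0 in all 4 libraries. For keratinocytes, Sfn was called higher and Trp63 lower of 3 tested. For endothelium, Cldn5 was called higher and Tek lower of 5 tested. For primitive endoderm, Dab2 was called lower of 3 tested, and Afp and Ttr were at 0 in all 4 libraries. None of 4 adipocyte and none of 3 two-cell-stage markers tested was called by limma. Differences of low adjusted p stayed under the 2-fold limit, with Lpl at 6.44 and 8.46 FPKM against 4.02 and 4.09 FPKM and Zscan4f at 0.44 and 0.93 FPKM, listed at 0 with NanogWT.

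**Figure D4:**
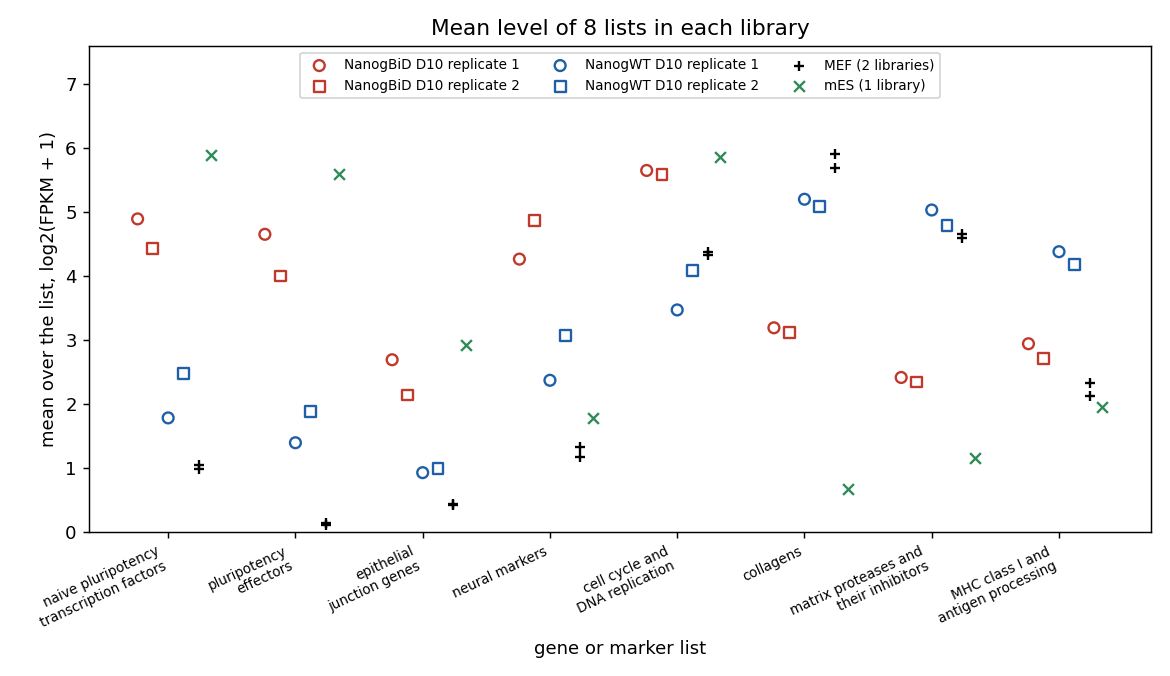
Mean log2(FPKM + 1) over the genes of 8 lists in each library at D10, with open red symbols for NanogBiD, open blue symbols for NanogWT, black crosses for the 2 MEF libraries and green crosses for the mES library (circles are replicate 1, squares replicate 2). The NanogBiD replicates order oppositely for naive factors (4.89 and 4.43) and neural markers (4.26 and 4.86), while NanogWT replicate 2 is above replicate 1 in both.

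Set against the reference libraries, the genes called higher were mainly genes of ES cells. Of the 2597, 1596 (61.5%) had at least 2-fold more in mES than MEF did, against 22.0% of all genes tested. NanogBiD was at least 2-fold above MEF for 72.5% of them and NanogWT for 8.16%, against 19.7% and 12.1% of all genes tested. A higher call needs NanogBiD above NanogWT, so part of this gap follows from the selection. The genes called lower were of a different make. Of the 2079, 1092 (52.5%) were at least 2-fold lower in mES than in MEF, against 15.5% of all genes tested, but NanogWT itself was at least 2-fold above MEF for 958 (46.1%), against 12.1% of all genes tested, and NanogBiD at least 2-fold below MEF for 856 (41.2%), against 8.66%. Both held for 80 genes. A lower call likewise needs NanogBiD under NanogWT, so these 2 shares too depend on the selection. The lower calls thus held genes above the fibroblast level with NanogWT and genes under it with NanogBiD.

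A further set was near absent from both references. Of the genes called higher, 258 (9.93%) were under 1 FPKM in MEF and in mES, against 16.2% of all genes tested. The largest protein-coding differences among them were Wnt8a (14.5 and 10.6 FPKM against 0.18 and 0.55 FPKM), Rhox6 (21.5 and 5.95 FPKM against 0.23 and 0.39 FPKM), and then the neural genes Nhlh2 (27.1 and 44.5 FPKM against 1.48 and 4.89 FPKM), Hes5 (44.3 and 70.1 FPKM against 2.45 and 11.6 FPKM) and Scrt2 (31.4 and 42.1 FPKM against 1.76 and 6.51 FPKM). Of the genes called lower, 404 (19.4%) were under 1 FPKM in both references, led by Gdf7, Col28a1, Vgf and Casq2 and followed by Gda, guanine deaminase (0.67 and 1.5 FPKM against 59.2 and 46.3 FPKM). These genes were picked by size after their values were seen. A gene near 0 with one combination can pass the filter on low values through the other combination alone. The direction of such calls is therefore no independent result.

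The NanogWT replicates were not alike in these genes. NanogWT replicate 2, the deepest of the D10 libraries, was above replicate 1 in 83.7% of the genes called higher and in 21.5% of those called lower, against 49.8% of all genes tested. It therefore lay nearer to NanogBiD than replicate 1 did on both sides. NanogBiD replicate 1 was above replicate 2 in 55.6% of the genes called higher and 57.4% of those called lower, against 51.0% of all genes tested. The part of depth in this order was not tested. Called genes numbered 4152 without NanogWT replicate 1 and 5042 without NanogWT replicate 2.

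The difference was then followed in time. At D7, 10.4% of genes were called between the combinations (5.79% higher and 4.65% lower with NanogBiD), and at D12 23.4% (13.5% and 9.97%). Of the 2597 genes called higher at D10, 662 (25.5%) had been called higher at D7, which is 67.9% of the D7 calls in that direction, and 1718 (66.2%) were called higher at D12. Of the 2079 called lower, 492 (23.7%) had been called lower at D7, which is 62.8% of the D7 calls, and 1535 (73.8%) were called lower at D12. Opposite calls were rare, with 9 and 29 genes at D7 and 1 and 0 at D12. NanogWT libraries of D7 had a relative depth like that of NanogBiD, whereas those of D12 did not. The study's methods place the switch from iCD3 to 2iL after D7 or at a set time. The step from D7 to D10 can therefore also span this change of medium, whose part was not tested. A direct test of the change of the difference called 2545 genes (15.1%) from D7 to D10, of which 1132 changed toward NanogBiD and 1413 toward NanogWT. From D10 to D12 it called 84 (0.499%), with 59 (0.35%) toward NanogBiD and 25 (0.148%) toward NanogWT. That count ranged from 54 without NanogWT D10 replicate 1 to 263 without NanogWT D10 replicate 2, and was 5 with the compared groups alone.

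Besides cholesterol synthesis, the matrix lists changed in many members between D7 and D10. Of the 25 matrix proteases and inhibitors, 19 were called as falling relative to NanogWT in the test of the change, as were 17 of the 24 mesenchymal genes and 15 of the 21 collagens, against 8.39% of all genes tested. For the 1413 genes called as falling, the median change of level from D7 to D10 was -0.91 on the log2 scale with NanogBiD and 0.69 with NanogWT. For the 1132 called as rising, the medians were 1.16 with NanogBiD and -0.14 with NanogWT. Pluripotency effectors had 13 of 21 members called as rising, and naive factors 6 of 19. At D7, 10 of the effectors and 14 of the naive factors had been called higher. Wnt targets ran the other way, with 10 of 17 called as falling and a median of 1.84 at D7 and 0.70 at D10. Interferon-stimulated genes had 18 of 22 called lower at D7 and 10 called as rising by D10.

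**Figure D5:**
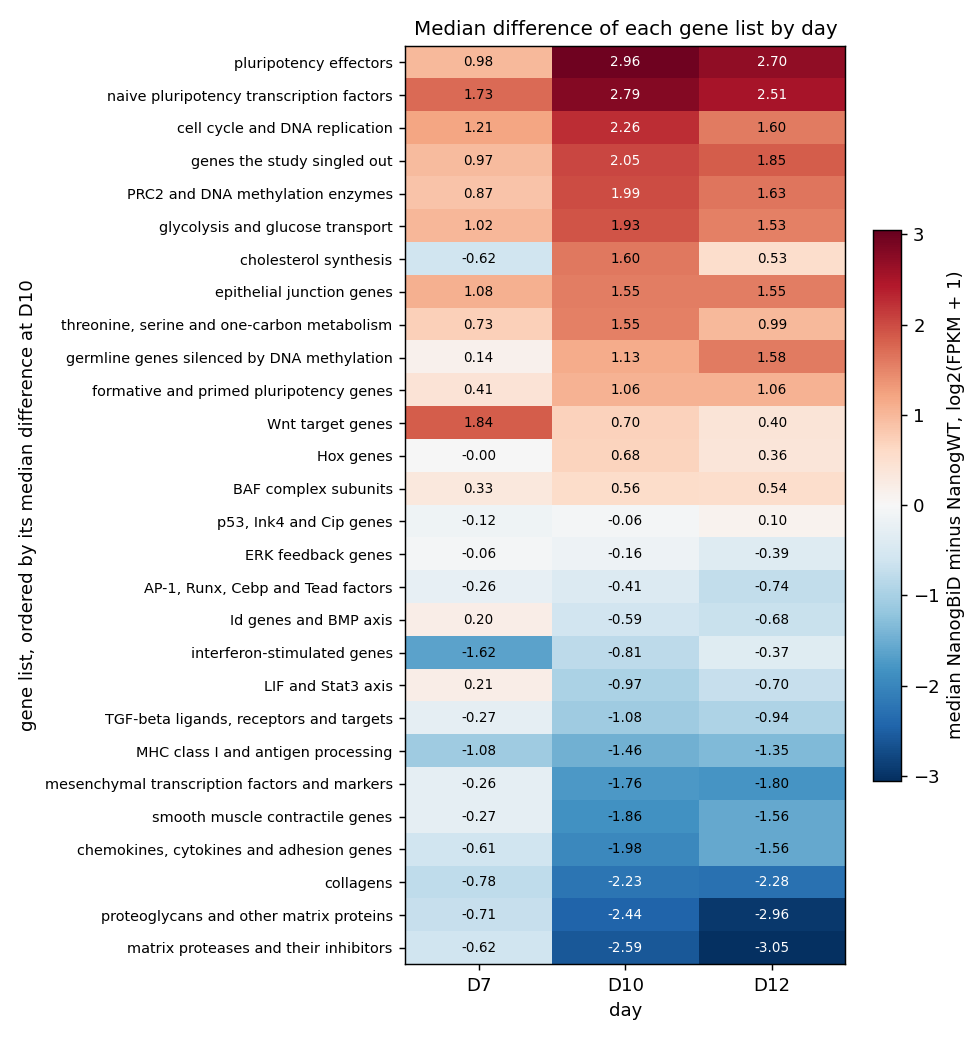
Each cell gives the median NanogBiD minus NanogWT difference, in log2(FPKM + 1), over the tested members of a gene list at D7, D10 or D12, with red for higher and blue for lower with NanogBiD. Matrix proteases go from -0.62 at D7 to -2.59 at D10 and -3.05 at D12, and cholesterol synthesis from -0.62 to 1.60 and 0.53.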

How the data were processed

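RNA was measured by poly(A) RNA-seq in 4 D10 samples, within a time course of 31 libraries. Per the study's methods and the submitters' processing notes, the authors trimmed reads with Trim Galore 0.6.4, aligned them to mm10 with HISAT2 2.2.1 and quantified genes with StringTie 2.2.1, keeping replicates apart. The annotation and strand setting are not given in the sources used here, so overlapping genes are uncertain. The labels and the methods name different library kits. The authors deposited FPKM for 37108 genes. Since such values are no counts, count models were not applied. Low values were whole multiples of a gene-specific step (found for 1137 genes; 94.7% to 98.2% of low values whole within 0.05 in the 21 libraries not used to find it), which gave relative depth only, so no counting interval is given.

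Genes reaching 1 FPKM in 2 or more libraries of the time course were tested (16842) on log2(FPKM + 1) with limma 3.58.1 in R 4.3.3 (intensity trend, 16 groups of combination and day sharing one spread, two-sided, Benjamini-Hochberg adjustment). A gene was called where its adjusted p was under 0.05 and its difference reached 1 on the log2 scale. In any list, a gene near 0 with one combination can pass the filter through the other alone, and its direction is then no independent result. Tested on simulated data for D10, the fit recovered 200 of 200 genes changed by 2 (log2) and called 5 others among 16842. The changed genes were drawn from those with a mean of at least 2 on the log2 scale. Noise was normal, with each gene's own spread, and no difference in depth was simulated. The test therefore does not cover smaller changes, the recovery of low genes or the unequal depth at D10. The replicate number was not used to pair samples, since the labels do not tie it to a shared batch. Gene coordinates and promoters are RefSeq's (GRCm38.p6). Genes named are the 10 largest and the 10 most negative protein-coding differences called without overlap, up to 4 called members per gene list, the factors Nanog, Pou5f1 and Ss18, and the 5 largest protein-coding changes each way in each test of the change of the difference. Other list members are given as values. A gene in more than 1 list counts in each. The members, gene lists and tests were chosen with earlier results of these data known. Alternatives were a pseudocount of 0.1 or 5, no filter, a filter at a mean of 5 FPKM, rescaling to a common total, quantile normalization, the compared groups alone, a replicate block, no fold limit and leaving out each replicate. Chosen after seeing the data were protein-coding genes alone, a fit after removing, library by library, a spline (5 degrees of freedom) on GC and on length, possible for 91.6% of tested genes, and NanogWT of D7 in place of NanogWT of D10. Python 3.11.15, numpy 2.4.6, pandas 2.3.3 and matplotlib 3.10.9 served for tables and plots. Not every gene of the lists is reported here by name.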

Additional observations from a re-analysis of the deposited data

Results flagged for a closer look

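The difference between the combinations was itself different between days, by limma's test of the change. From D7 to D10, a step that can also span the switch from iCD3 to 2iL, it changed in 2545 genes. The 5 protein-coding genes that changed most toward NanogBiD were Nts, Phf11d, Sele, Grm2 and Calcoco2, with log2 changes of 4.85, 3.76, 3.57, 3.52 and 3.45. Of these, Nts (neurotensin) and Sele (E-selectin) stood at a mean of 33.4 ± 13.3 and 33.0 ± 3.47 FPKM (SD, n = 2) with NanogWT at D7 and at 0.043 and 0.20 FPKM at D10, while NanogBiD was at or under 1.48 FPKM on both days. Calcoco2, a receptor of selective autophagy, went with NanogBiD from 0.31 to 24.2 FPKM and with NanogWT from 0 to 0.68 FPKM.

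The 5 that changed most toward NanogWT were Lox, Cemip, Ccn3, Clca3a2 and Clu, with changes of -4.78, -4.71, -4.67, -4.37 and -4.23. Lox, the enzyme that crosslinks collagen, was at 67.7 ± 3.77 FPKM with NanogBiD and 30.7 ± 0.10 FPKM with NanogWT at D7 (SD, n = 2) and at 23.7 and 310 FPKM at D10. Ccn3 was at 593 and 175 FPKM at D7 and at 18.7 and 144 FPKM at D10. Clu, clusterin, was at 766 and 50.2 FPKM at D7 and at 74.1 and 94.0 FPKM at D10.

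From D10 to D12 the difference changed in 84 genes. The 5 largest changes toward NanogBiD were Gm21293, Gm4340, Gm8764, Gm21304 and Gm6763 (2.42, 2.37, 2.29, 2.2 and 2.16). All 5 were listed at 0 in both NanogWT D10 libraries and at 0.19 to 0.56 FPKM (means) with NanogBiD at D10, and at D12 they reached 9.56 to 11 FPKM with NanogBiD and 0.73 to 0.93 FPKM with NanogWT. Such near-identical copies can share reads, and their single levels are uncertain. The 5 largest toward NanogWT were Sst, Cdk5r2, Crmp1, Scrt2 and Dpysl5 (-2.72, -2.05, -2.01, -1.95 and -1.94), genes of neurons. Of these, Cdk5r2, Crmp1, Scrt2 and Dpysl5 each lost the call without NanogBiD D10 replicate 2, NanogBiD D12 replicate 1, NanogWT D10 replicate 1 or NanogWT D12 replicate 1. Cdk5r2 also lost it without NanogBiD D10 replicate 1, and Crmp1 and Dpysl5 without NanogWT D12 replicate 2. With NanogWT, Sst (somatostatin) was at 2.74 FPKM at D10 and 33.0 ± 2.89 FPKM at D12 (SD, n = 2), and with NanogBiD at 15.5 and 21.3 FPKM.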

How the results depend on the processing

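For NanogBiD against NanogWT at D10, the count of 4676 calls moved by over 1.5 times with a filter at a mean of 5 FPKM (2740 of 9333 genes tested), a pseudocount of 5 (2255) and no fold limit (9358), and the other settings gave 4152 to 6210. Under the same 3 settings the change of the difference from D7 to D10 (2545) gave 1300, 1148 and 4110. The change of the difference from D10 to D12 (84) gave 5 with the compared groups alone, 5 with a mean of 5 FPKM, 11 with a pseudocount of 0.1, 37 with a pseudocount of 5 and 48 with a common total, and quantile normalization split it into 42 rising and 28 falling, against 59 and 25. Leaving out 1 library gave 4152 to 5042 calls at D10, 2030 to 2720 for the change from D7 to D10 and 54 to 263 for that from D10 to D12. The last rests on single libraries, with 263 without NanogWT D10 replicate 2, 170 without NanogBiD D12 replicate 2, 147 without NanogBiD D10 replicate 1 and 54 without NanogWT D10 replicate 1. The replicate block gave 4683, 2625 and 92. The deviations of replicate 1 from its group mean at D10 correlated across genes at 0.12 between the combinations. With 2 replicates per group this is a single value, which cannot decide whether the libraries were paired. Of the 39 gene and marker lists, the count of calls moved by over 1.5 times in 12 with a mean of 5 FPKM, 11 with a pseudocount of 5, 11 with NanogWT of D7, 8 with no fold limit, 4 with a pseudocount of 0.1, 3 with a common total and 1 to 3 without single D10 libraries. The medians of the lists kept their sign with a common total and with quantile normalization, and the difference at D10 correlated weakly across genes with GC content (rho = -0.052).

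In NanogBiD against NanogWT at D10 with NanogWT of D7, of like depth, in place of NanogWT of D10, 5138 genes were called, 3425 of them also called in the D10 comparison. Day, possibly medium, and combination then differ together. Directions turned for Ogn (0.99), Saa3 (1.48), Idi1 (-0.10), Insig1 (-0.35), Fdps (-0.34), Phf11d (-0.51), Grm2 (-0.12) and Clu (0.56), as did Nts, NanogBiD against NanogWT at D10 (-4.83). The cause was not tested. Depth remains the limit at D10, since both NanogWT libraries are deeper.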
